A study of Mus musculus with 12 samples.

Results

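Transcripts that wild-type (WT) mouse embryonic stem cells (ESCs) kept or lost during 8 h of actinomycin are described here. The 3 libraries are WT ESCs of the C57BL/6 strain at 0, 4 and 8 h after the drug, which blocks transcription, so that existing transcripts are lost without being replaced. The ESCs were held in the naive ground state, in serum-free N2B27 medium with LIF and 2i, which is the pair of inhibitors CHIR99021 and PD0325901. Members are the entries of the deposited expression table with a level of at least 300 in WT ESCs at 0 h, 5490 of 19708. They include 5380 protein-coding and 110 noncoding RefSeq entries, and 5470 of them could be given a gene symbol. The other libraries of the series are Mettl3 knockout (KO) ESCs, KO embryoid bodies (EBs) and WT EBs at the same 3 times after actinomycin, all C57BL/6. EBs are aggregates of differentiating cells made from ESCs and were grown in serum medium for 8 to 21 days. Mettl3 encodes the enzyme that writes the m6A mark on mRNA, and the series concerns that mark in pluripotent and differentiating cells. Each genotype, cell type and time has 1 library, 12 in all, and the labels do not say whether the times share a culture.

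Most mammalian mRNAs are degraded after their poly(A) tail has been shortened by the CCR4-NOT complex, which is followed by removal of the cap and digestion of the body. The speed differs widely between genes, and transcripts of regulators, such as transcription factors and signalling feedback genes, are known to be turned over faster than those of metabolic and structural proteins. Proteins that bind the 3′ untranslated region (UTR), among them AU-rich element binding proteins and Pumilio proteins, recruit the deadenylases, while exon junctions laid down by splicing are known to go with stable mRNA.

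Sequences of both kinds of 3′ UTR element are shown first because the motif counts given with the transcript features rest on them. The AU-rich nonamer TTATTTATT, in capitals, stands below as DNA of the transcript strand, 5′ to 3′, with 8 bases on each side (GRCm38, the mm10 build). Shown are the first copy in each of the 10 pluripotency factor transcripts that holds it and in the 4 short-lived members of highest 0 h level that do.
Nanog, chr6:122713632-122713656, plus strand: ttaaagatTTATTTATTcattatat
Klf5, chr14:99314661-99314685, plus strand: ttttatcaTTATTTATTttgtggta
Epha2, chr4:141328590-141328614, plus strand: ctggaactTTATTTATTtctgtttc
Mdm2, chr10:117688917-117688941, minus strand: cattgatgTTATTTATTtgcaaata
Akirin2, chr4:34566780-34566804, plus strand: tggtagttTTATTTATTctatcagt
Hgsnat, chr8:25944607-25944631, minus strand: gtctgattTTATTTATTtttttttt
The next set holds the Pumilio element TGTAAATA in capitals, written in the same way, in pluripotency factors that hold it and in 3 short-lived members of high 0 h level.
Klf5, chr14:99313908-99313931, plus strand: ccgaatttTGTAAATAtgcaaatc
Tbx3, chr5:119684029-119684052, plus strand: atatctctTGTAAATAggtggaat
Wdr43, chr17:71657832-71657855, plus strand: tttaactgTGTAAATAagagtgtt
Dlc1, chr8:36568445-36568468, minus strand: ccccacatTGTAAATAcactttaa
Cdt1, chr8:122573008-122573031, plus strand: gggccttcTGTAAATAtgtgaagt

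The deposited normalized levels of the 3 libraries sum to 11023612, 11085581 and 10057266 at 0, 4 and 8 h. By the step between low values the libraries hold 480158, 447962 and 307442 read equivalents, so that of 8 h is the shallowest, and a level of 300 at 0 h corresponds to 13.1 reads and a level of 1000 to 43.6. No RNA amount per cell was measured. As the totals stayed close, a share of the 0 h level is relative to the other transcripts of the library, and a share over 100% does not mean that RNA was made. In these bulk samples fewer cells of a type and less RNA per cell cannot be told apart. Of 12 ESC marker genes 11 had a level of at least 300 at 0 h, the exception being Dppa3 at 129. Summed levels at 0, 4 and 8 h were 95790, 90858 and 80468 for the ESC list, against 4363, 3127 and 2735 for the fibroblast and feeder list, in which Fn1 and Vim were the only genes from 300 and Lum was at 0. The primitive and visceral endoderm list summed to 3688, 4113 and 4030, of which Sparc gave 3036 at 0 h, with Foxa2 and Apoa1 at 0 there. The trophoblast list summed to 466, 322 and 289, with Cdx2, Elf5 and Krt7 at 0 in all 3 libraries. The neural list, with Pax6 at 0, summed to 832, 958 and 920, of which Tubb3 gave 632 at 0 h. The primed list, with Cer1 at 0 in all 3 libraries, summed to 1630, 845 and 663. Of this Lefty2 gave 1408 at 0 h, where T and Fgf5 were at 0 too. The 2-cell-like list summed to 84, 24.3 and 113. What part cells of these types had in the results was not tested.

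The median member kept 85.3% of its 0 h level at 4 h and 69.8% at 8 h, and the spread among members was wide. From the 5th to the 95th percentile the share ran over 19.4% to 160% at 4 h and over 12.6% to 152% at 8 h. Transcripts with at most 25% left at both times are called short-lived, and there were 290 of them (5.28% of members). Those with at least 100% left at both times are called long-lived, 1113 in all (20.3%). A further 352 members (6.41%) still had at least 75% at 4 h but at most 50% at 8 h. Scaling the 3 libraries by median ratios raised the medians to 98.2% and 87.6%, with 216 short-lived and 1867 long-lived members.

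The rule that chose the members uses the 0 h level, which is the denominator of each share, so a chance high value at 0 h both admits a gene and lowers its share. Members of 300 to 330 at 0 h (304 genes) had medians of 71.4% and 59.0% at 4 and 8 h, and entries just below, from 270 to 300 (359 genes), had 64.1% and 52.4%. When members were instead taken by a mean of at least 300 over the 3 libraries, the medians were 95.5% and 81.6% and 112 genes were short-lived. Shares also varied with level. The median at 8 h was 57.0% for members from 300 to 500, 60.6% from 500 to 1000, 73.7% from 1000 to 3000 and 98.8% from 3000.

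**Figure D1:**
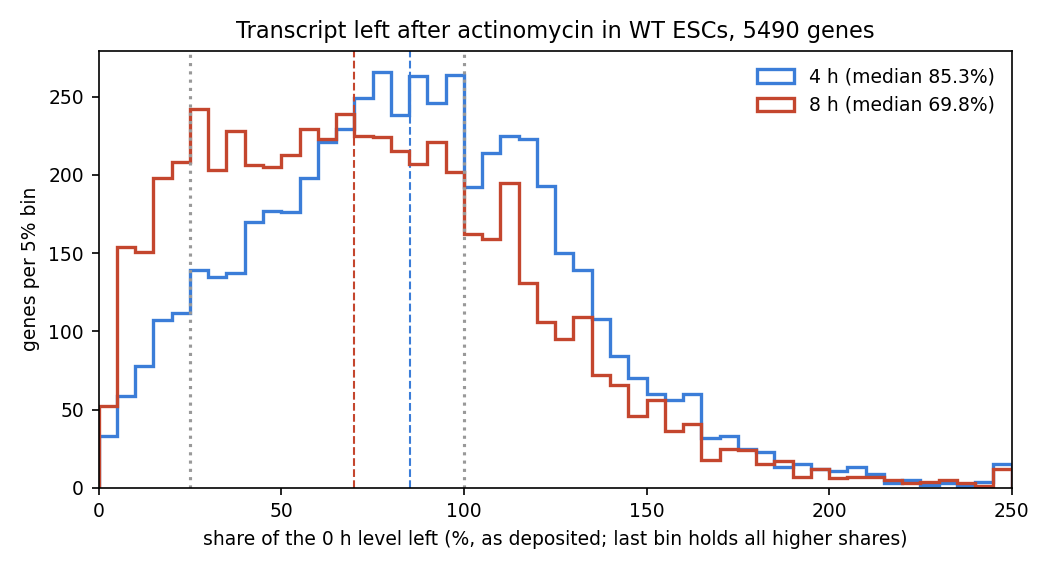
Number of members (y axis, genes per bin of 5 percentage points) by the share of the 0 h level left (x axis, %, as deposited) at 4 h in blue and 8 h in red, for the 5490 members in WT ESCs. Dashed lines mark the medians of 85.3% and 69.8%, and dotted lines the limits of 25% and 100% behind the short-lived and long-lived classes.

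Change over time was tested with limma as a straight line of log2(level + 8.58) over hours, with a slope for each of the 4 conditions fitted to all 12 libraries. By this test 519 members (9.45%) fell and 5 (0.0911%) rose at a Benjamini-Hochberg adjusted p of 0.05. Of the 12704 genes tested, 680 (5.35%) fell and 20 (0.157%) rose. The 0 h level that admits members is also the start of the tested line, so a chance high value there tilts the line downward. What part this had in the higher share of falls among members was not tested. The spread behind these calls is the scatter of single libraries around the 4 lines, so it holds curvature as well as library noise and not the variation between cultures. With the 3 WT ESC libraries alone 0 members were called, at 1 residual degree of freedom; at an unadjusted p under 0.05 the 12-library fit had 1539 members. Without the WT ESC library of 0 h 12 members fell, without that of 4 h 655, and without that of 8 h 129, so the count rests on the 0 h and 8 h libraries. Median-ratio scaling of the tests, with factors over all 12 libraries and not the 3 used for the shares, left 226 falls. Of the 290 short-lived members 142 fell, as did 26 of the 352 with late loss. These classes and the slopes use the same 3 libraries, so the counts are no separate evidence of loss. That 0 of the 1113 long-lived members fell follows from their definition, as a level kept at 8 h cannot give a falling line.

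Several transcription factors of naive pluripotency had transcripts that fell steeply, others fell less or were not called, and the transcript of Oct4 was not called. Of 17 members of the naive list 10 fell (58.8%, against 9.45% of all members), 0 rose and 7 were not called. The list's median share was 43.4% at 4 h and 25.4% at 8 h, against 85.3% and 69.8% over all members. Of 19 members of the core pluripotency list 8 fell (42.1%) and 11 were not called, with medians of 71.8% and 43.5%. Slopes below are limma estimates in log2 units per hour with their SE, and brackets after shares are 95% exact conditional intervals, which cover counting error only.

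Klf2 (chr8:72319062-72321654), a Krüppel-like factor of the naive network, had levels of 5550, 214 and 125 at 0, 4 and 8 h, and fell with a slope of -0.67 ± 0.10 (limma adjusted p 0.00152). Its share left was 3.86% (1.81% to 7.74%) at 4 h. Klf4 (chr4:55527137-55532475), a related factor, had 2547, 235 and 62.8 and a slope of -0.65 ± 0.07 (limma adjusted p 0.000348). Klf5, the other member of that trio, was lost later, with 5717, 2003 and 481. Its share was 35.0% (26.9% to 45.2%) at 4 h and 8.41% (4.73% to 14.4%) at 8 h, with a slope of -0.44 ± 0.06 (limma adjusted p 0.000827). Zfp42 (chr8:43295067-43307009), the zinc-finger gene also called Rex1, had 8661, 977 and 408 and fell at -0.55 ± 0.06 (limma adjusted p 0.00053). The 4 genes were lower in both treated libraries than at 0 h, with counting intervals below 100%.

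Sox2, a core factor that binds DNA with Oct4, stood at 2671, 235 and 356 and fell at -0.36 ± 0.10 (limma adjusted p 0.0404), with its 8 h level above that of 4 h. Tbx3, a T-box factor of the naive network, had 1434, 310 and 235 (limma adjusted p 0.0399). Both were low in the treated libraries alike. Esrrb, an orphan nuclear receptor, had 3186, 2584 and 959 and fell at -0.22 ± 0.05 (limma adjusted p 0.0333), so that most of its loss came after 4 h. Nanog, a homeodomain factor, had 4057, 2239 and 1508 and fell at -0.18 ± 0.05 (limma adjusted p 0.0488). It still had 37.2% (26.2% to 51.5%) at 8 h. The calls of Sox2, Tbx3, Esrrb and Nanog were lost under median-ratio scaling, and those of Klf2, Klf4, Zfp42 and Klf5 held there.

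Pou5f1 (chr17:35506032-35510777), which encodes Oct4, had 32682, 41599 and 41154 and was not called (slope 0.04 ± 0.03, limma adjusted p 0.542). Tfcp2l1, a naive factor downstream of LIF, had 3491, 3793 and 2444 and was not called either (-0.06 ± 0.06, limma adjusted p 0.61). In the untreated library Pou5f1 was the highest of the 10 factors, and it was the only member of the 10 above its 0 h level at both later times. Other highly expressed genes of the core list included Dppa5a, an RNA-binding protein of pluripotent cells, at 16040, 26749 and 24456, and Tdgf1, which encodes the Nodal co-receptor Cripto, at 12269, 9237 and 7798, neither of them called.

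**Figure D2:**
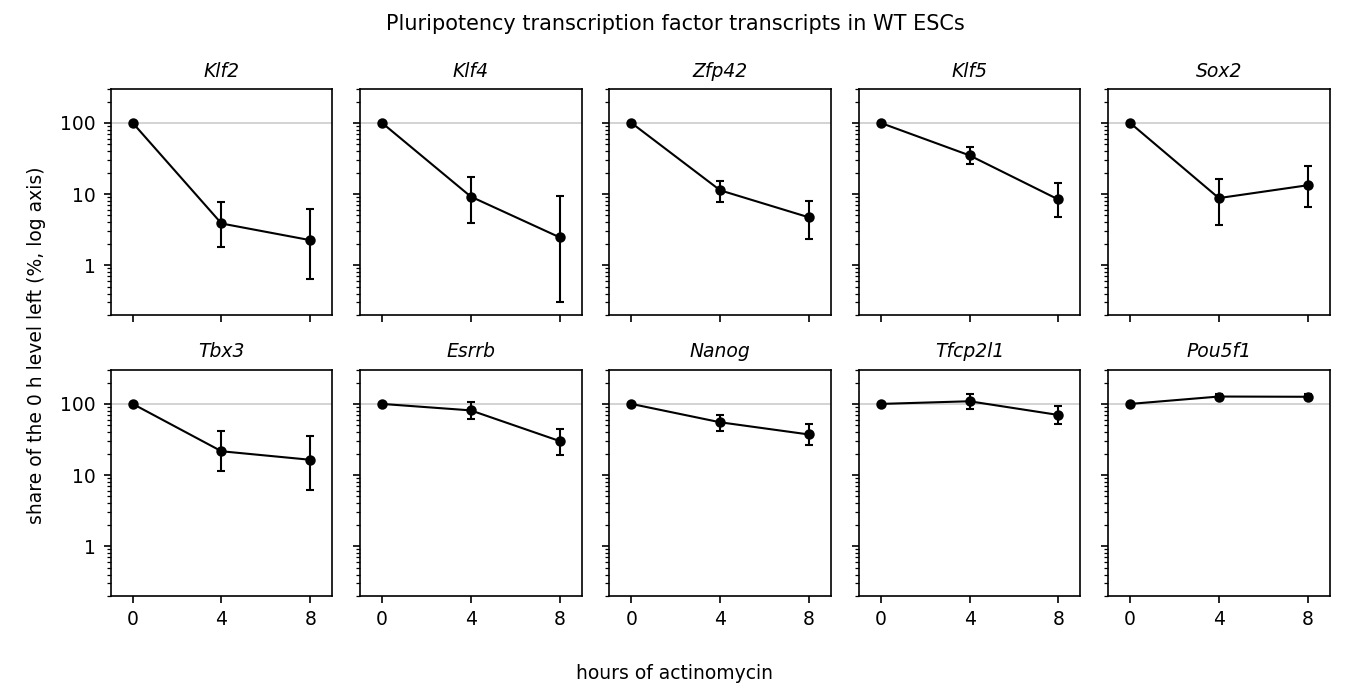
Share of the 0 h level left (y axis, %, log axis) at 0, 4 and 8 h of actinomycin (x axis, hours) for 10 pluripotency transcription factor genes in WT ESCs, 1 library a time. Bars are 95% exact conditional intervals for counting error; Klf2, Klf4 and Zfp42 are under 5% at 8 h, while Pou5f1 is at 126%.

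The 12 steepest falls among the 207 called members from a level of 1000 included, besides Klf2 and Klf4, kinase, transcription factor and apoptosis genes. Pim3 (chr15:88862194-88865726), a serine/threonine kinase gene induced by LIF through Stat3, had 5838, 245 and 119 at 0, 4 and 8 h and led them with a slope of -0.69 ± 0.10 (limma adjusted p 0.00164). Mycn, a Myc family factor, had 1296, 72.8 and 24.9 (-0.66 ± 0.08, limma adjusted p 0.000655). Bbc3, the gene of Puma, a protein that triggers apoptosis, had 1050, 164 and 20.9. The 8 h levels of Mycn, Bbc3, Cited2, Zfp622 and Zcchc10 are worth about as much as a single read, so their slopes and ranks depend on the pseudocount.

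Tsc22d1, a transcriptional regulator responsive to TGF-β, was the most abundant of the 12, at 10197, 1774 and 482 (-0.55 ± 0.05, limma adjusted p 4.5e-05). Ier2, an immediate early gene, had 3055, 141 and 130, and Cited2, a co-regulator that binds CBP and p300, had 1225, 32.7 and 32.7. Their levels at 4 h and 8 h were alike, and those of Cited2 are worth about a read, where no further loss could be seen. Txnip, an inhibitor of thioredoxin and of glucose uptake, had 2302, 166 and 98.1. Zfp622 (1342, 347 and 32.1), Zmym1 (2795, 340 and 96.8) and Zcchc10 (1002, 368 and 32.7), which encode zinc-finger proteins, completed the group. All 12 were lower at 8 h than at 4 h or level with it.

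**Figure D3:**
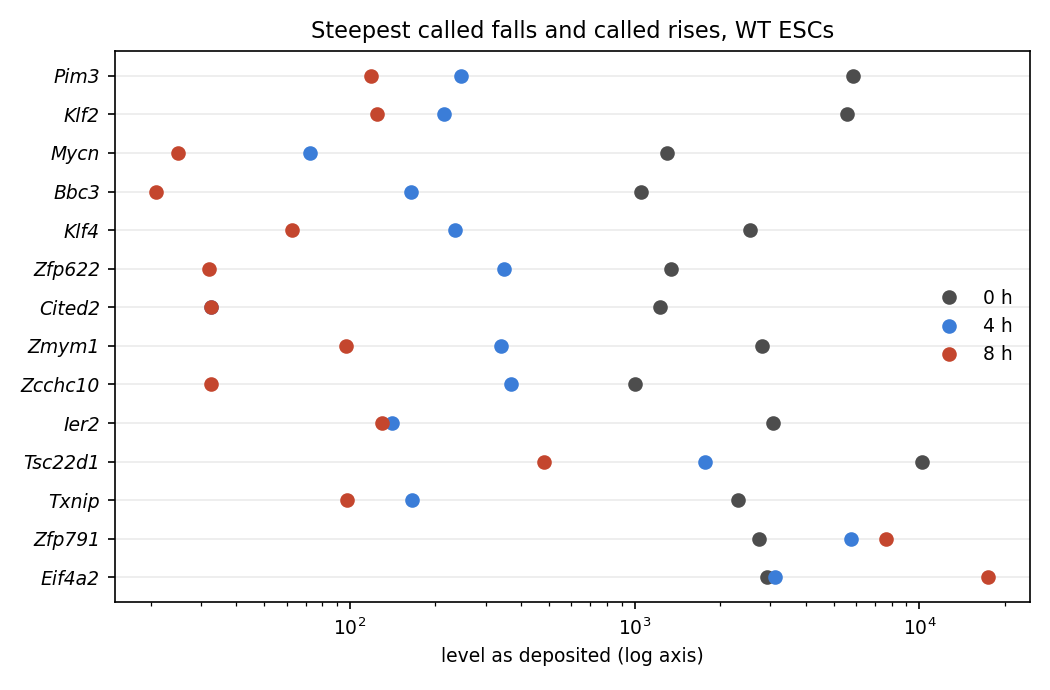
Deposited level (x axis, log axis) at 0, 4 and 8 h of actinomycin for the 12 steepest called falls and the 2 called rises among members from a 0 h level of 1000 in WT ESCs, 1 library a point. In the falls the treated libraries lie left of the 0 h point, and Eif4a2 is set apart by its 8 h library alone.

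Immediate early genes and replication-dependent histones had the lowest median shares of the 42 lists at both times, and several signalling lists followed, as the plot of list medians shows. The list of Wnt pathway feedback and target genes, at 97.3% and 81.2% (6 members, 1 fall), was above all members instead. Called falls in each list can be set beside the 9.45% over all members. Calls of some genes named below were lost under median-ratio scaling, namely those of Ccn2, Zfp36l1, Fgf4, Ier3, Etv5, Mdm2, Ccng1, H2ac24, H2bc8, Ythdf3, Rbm15, Med17, Cdc6, Orc1, Hspa5, Eed, Tet2, Hk2, Wdr43 and Epha2. Of 13 immediate early members 8 fell, and the list's medians were 10.2% at 4 h and 7.61% at 8 h. Among them were Dusp1, a phosphatase that switches off MAP kinases (464, 22.3 and 0), and Ccn2, a secreted matrix protein (799, 82.2 and 58.2). The classic early genes Fos, Myc and Jun, named here after their values were seen, stood at only 129, 135 and 45.5 at 0 h, too low to be members, and at 0 in both treated libraries. Zfp36l1, whose protein binds AU-rich elements and recruits deadenylases, kept 61.0% at 4 h and fell to 181 at 8 h, against 906 at 0 h.

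Of 5 members of the LIF and Stat3 list 2 fell, Pim3 and the related kinase gene Pim1 (1119, 280 and 126), and the median share was 25.0% at 4 h and 11.2% at 8 h. Socs3, the feedback inhibitor of the pathway, had 677, 97.0 and 65.4 and was not called. Stat3 itself had 450, 125 and 323, so its 8 h level was above that of 4 h. In the FGF and ERK feedback list, 3 of 8 fell (medians 23.4% and 20.3%). These were the ligand gene Fgf4 (2061, 285 and 187), Ier3 (472, 21.3 and 20.9) and the ETS factor gene Etv5 (1954, 1800 and 542). Its relative Etv4 had 4085, 5812 and 2995 and was not called.

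In the TGF-β and BMP list 2 of 11 fell, with medians of 22.6% and 20.6%. Tgif1, a corepressor of Smad signalling, had 5032, 1029 and 311 (-0.50 ± 0.05, limma adjusted p 0.000187), and Lefty1, an inhibitor of Nodal, had 367, 43.1 and 0. Nodal, the ligand, had 1533, 54.9 and 76.5 but was not called (limma adjusted p 0.0851). Id1, a target of BMP signalling, had 1952, 438 and 376 and was not called. Low shares and called falls were thus not the same in this list.

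Of 16 members of the p53 list 9 fell, and the median share was 53.5% at 4 h and 23.4% at 8 h. Besides Bbc3 they included Sesn2, a stress regulator of mTORC1 (2008, 265 and 90.3), Phlda3, an inhibitor of Akt (1555, 396 and 201), and Ccng1, cyclin G1 (2123, 1392 and 500). Mdm2, the ubiquitin ligase of p53, had 1851, 348 and 334 and fell at -0.31 ± 0.07 (limma adjusted p 0.0224). Bax, the pore-forming effector of apoptosis, was not called at 12805, 12778 and 12037. So at 8 h the apoptotic activator Bbc3 (1.99%) and the effector Bax (94.0%) lay at opposite ends of the same list. At 4 h neither was at an end, with 15.7% and 99.8% in a list that ran from 6.56% to 126%.

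Of 11 replication-dependent histone members 5 fell and 10 were short-lived, with medians of 7.67% and 7.76%. H2ac24 had 1631, 85.1 and 85.7 (-0.52 ± 0.14, limma adjusted p 0.0398) and H2bc8 had 781, 72.3 and 56.3. Most histone mRNA lacks a poly(A) tail and the libraries select poly(A) ends, so these levels are those of a polyadenylated part. The genes are near-identical copies, and how reads were divided among them is uncertain.

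**Figure D4:**
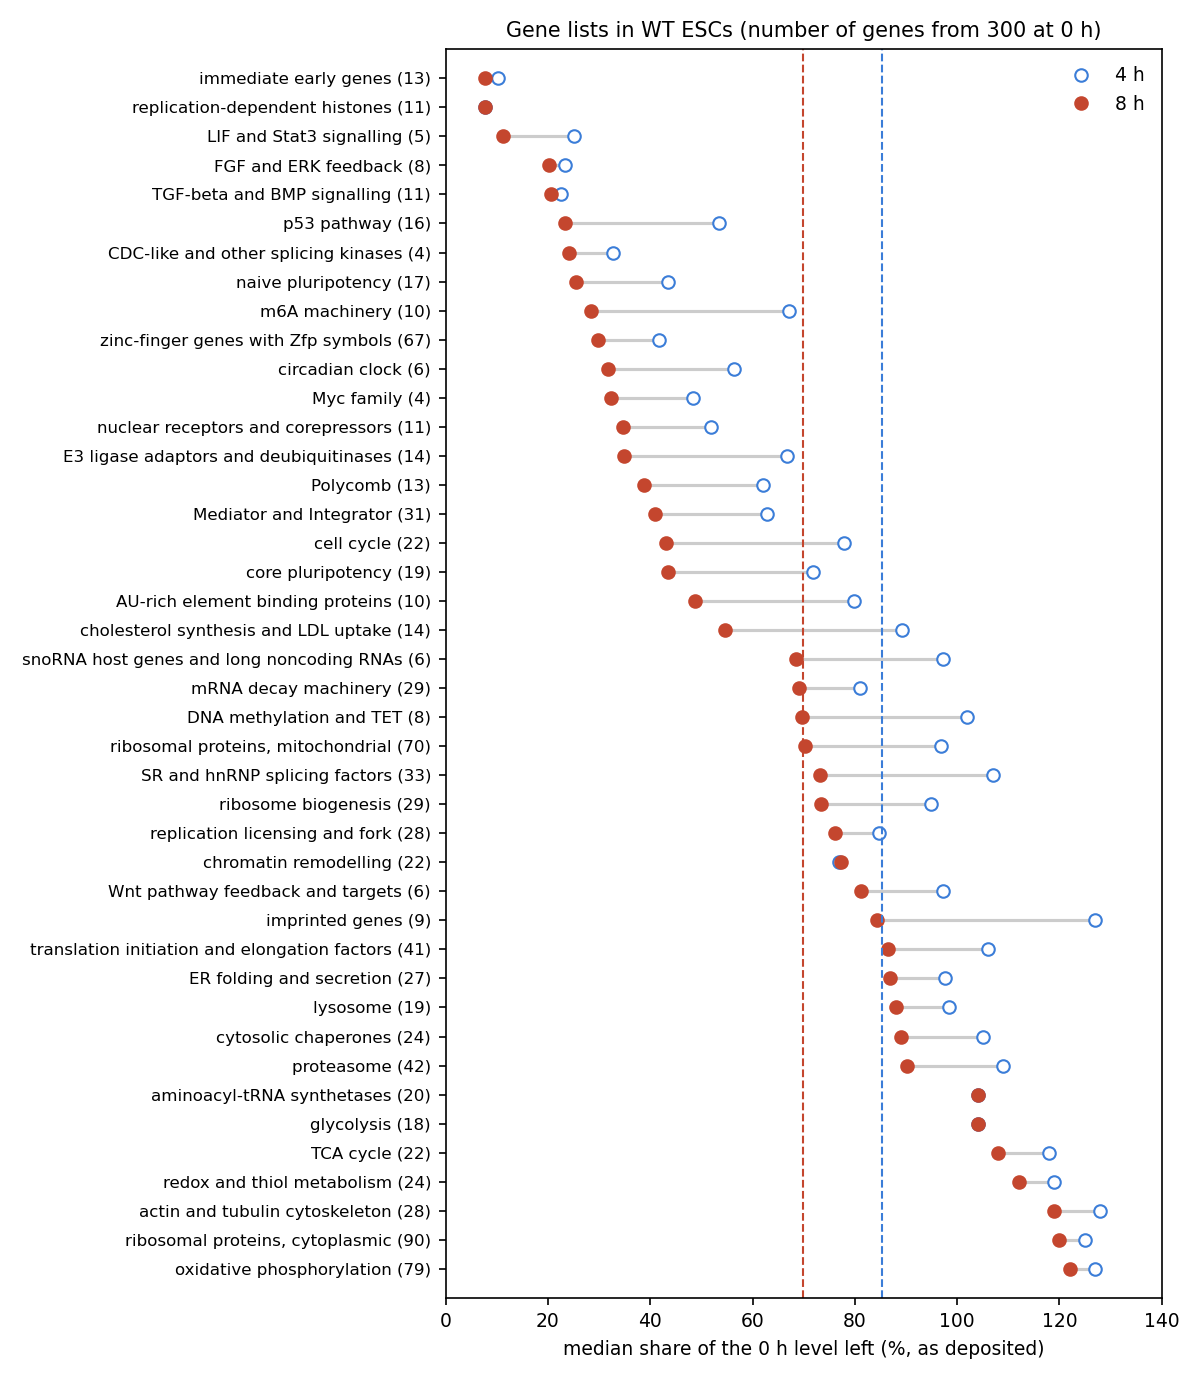
Median share of the 0 h level left (x axis, %, as deposited) at 4 h (open, blue) and 8 h (filled, red) in WT ESCs for 42 gene lists (y axis), ordered by the 8 h value, with the number of members of each in parentheses. Dashed lines are the medians of all members, 85.3% and 69.8%; immediate early genes and histones lie under 11% and oxidative phosphorylation and cytoplasmic ribosomal protein genes at 120% or above.

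Zinc-finger genes with Zfp symbols had 67 members, of which 14 fell, 1 rose and 52 were not called, with medians of 41.7% and 29.7%. Splicing kinases, which phosphorylate SR proteins, had 4 members at medians of 32.8% and 24.2%, and 0 were called. Clk1 was at 641, 158 and 104. The m6A machinery list had 10 members at 67.1% and 28.4%, and 3 fell: Wtap, a subunit of the writer complex (1482, 473 and 176), the reader gene Ythdf3 (596, 329 and 120) and Rbm15, which guides the writer to its sites (497, 167 and 93.6). Mediator and Integrator, complexes that act on RNA polymerase II, had 31 members at 62.8% and 40.9%, with 6 falls such as Ints5 (1168, 302 and 55.6) and Med17 (1446, 527 and 245).

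Cell cycle members had medians of 77.9% at 4 h and 43.0% at 8 h, and 3 of 22 fell (13.6%, against 9.45% of all members). These were the mitotic kinase genes Aurka (1487, 792 and 157) and Plk1 (2142, 673 and 251) and the cyclin gene Ccnf (2419, 877 and 491). Of 28 replication licensing and fork genes 3 fell (10.7%, against 9.45% of all members), at medians of 84.7% and 76.2%. They were the licensing factors Cdt1 (1837, 339 and 86.4), Cdc6 (405, 120 and 47.1) and Orc1 (692, 353 and 85.1). Members of the MCM helicase were not among those called, as with Mcm3 at 6218, 5712 and 3594.

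Among abundant chaperone genes some fell and others were not called. Hspa8, the constitutive cytosolic Hsp70 and among the most abundant transcripts at 0 h, had 55386, 28842 and 12659 and fell at -0.27 ± 0.03 (limma adjusted p 0.000734). Hsp90ab1, the constitutive Hsp90, had 58804, 68901 and 64853 and was not called. In the endoplasmic reticulum list Hspa5, the chaperone BiP, had 13081, 9669 and 5793 and fell at -0.15 ± 0.03 (limma adjusted p 0.0134). Atf4, the transcription factor of the integrated stress response, was lost faster, with 11332, 1018 and 586 (-0.53 ± 0.07, limma adjusted p 0.000827). Calr, the lectin chaperone calreticulin, had 6831, 6445 and 7809 and was not called. Of the 24 cytosolic chaperone members 2 fell (8.33%) and of the 27 endoplasmic reticulum members 4 (14.8%), against 9.45% of all members. The remaining 22 and 23 were not called, and the median share at 8 h was 89.1% and 86.8%.

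Among chromatin genes, Eed, a core Polycomb subunit, had 2714, 1688 and 663 and fell (-0.25 ± 0.05, limma adjusted p 0.0135). In all 2 of 13 Polycomb members fell (15.4%, against 9.45% of all members). Tet2, an enzyme that oxidises methylcytosine, fell with 2586, 1124 and 610, whereas Dnmt3l, a cofactor of DNA methylation, was at 12782, 14541 and 14741 and not called. In ribosome biogenesis 5 of 29 members fell (17.2%), among them the methyltransferase gene Nop2 (1760, 709 and 295). The abundant nucleolar genes Ncl (29673, 35392 and 29614) and Npm1 (23077, 24663 and 22690) were not called. Mitochondrial ribosomal protein members had 7 falls and 63 without a call among 70 (10.0% fell, against 9.45% of all members), at medians of 96.9% and 70.2%. Mrps2 (669, 254 and 52.3) and Mrps18a (1932, 675 and 408) were 2 of the 7.

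At 8 h, oxidative phosphorylation, cytoplasmic ribosomal protein and cytoskeleton genes had the highest median shares of the 42 lists. Translation initiation and elongation factors, at 106% and 86.5%, were lower, with 2 falls and 1 rise among 41 (4.88% fell, against 9.45% of all members). Of 79 oxidative phosphorylation members 0 fell, 0 rose and 57 (72.2%) were long-lived, against 20.3% of all members, with medians of 127% at 4 h and 122% at 8 h. Atp5b, a catalytic subunit of ATP synthase, had 24759, 33140 and 33176. Of 90 cytoplasmic ribosomal protein members 0 fell, 0 rose and 68 (75.6%) were long-lived, with medians of 125% and 120%. Rplp0, a stalk protein, had 76957, 92543 and 103519. Of the 70 mitochondrial ribosomal protein members, 14 (20.0%) were long-lived, close to the share over all members. Long-lived members were also more frequent at high levels, 45.8% from a 0 h level of 3000 against 13.4% from 300 to 500. The lists were not matched for level, and the difference between the lists was not tested.

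Actin and tubulin genes (28 members, medians 128% and 119%), redox genes (24, 119% and 112%), the TCA cycle (22, 118% and 108%) and aminoacyl-tRNA synthetases (20, both medians 104%) had 0 calls. Actb, β-actin, had 88628, 102012 and 105409. Prdx1, a peroxiredoxin that removes hydrogen peroxide, had 41800, 53941 and 54729, and Mdh2, the mitochondrial malate dehydrogenase, had 11476, 13790 and 12633. Glycolysis members had medians of 104% at both times, with Pgk1 at 9401, 12894 and 12531. Of the 18, 2 fell (11.1%, against 9.45% of all members). These 2 were Slc2a1, the glucose transporter Glut1 (4896, 2940 and 1356, -0.23 ± 0.04, limma adjusted p 0.00454), and Hk2, hexokinase 2 (2723, 1661 and 926). Their share of the list is close to that over all members.

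Scaling moves every share of a time by the same factor, so the order of lists at that time stays as it is. Under median-ratio scaling the cytoplasmic ribosomal protein median at 8 h was 151%, that of oxidative phosphorylation 154%, that of the naive list 31.9% and that of all members 87.6%.

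A called rise was rare. Eif4a2 (chr16:23107468-23114132), an RNA helicase gene of translation initiation, had 2912, 3114 and 17439, so that its rise (0.32 ± 0.08, limma adjusted p 0.0227) rests on the 8 h library, without which the call was lost. Zfp791, a zinc-finger gene, had 2737, 5757 and 7644 (0.18 ± 0.05, limma adjusted p 0.0426). The other members called rising, all under a level of 1000 at 0 h and named after their values were seen, were Malat1, a nuclear long noncoding RNA (525, 1377 and 1888), Spag6l (984, 1914 and 2674) and an entry of Col6a6 (656, 1794 and 2289). Each was higher at 4 h than at 0 h and higher again at 8 h. Like Eif4a2, Zfp791 and these genes lost their calls when the 0 h or the 8 h library of WT ESCs was left out.

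Among the 389 members with at most 25% left at 4 h, the median share was 15.7% at 4 h and 16.5% at 8 h. In 218 of them the 8 h level was not lower than that of 4 h, and in 63 it was at most 50% of it. At these levels a gene has few reads, and a further loss would often not be detectable at this depth. The 4 h level also chose these genes, so a chance low value there admits a gene and hides a later loss. What part this had was not tested.

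Transcript structure, which the choice of members did not use, was read from the GENCODE M21 annotation of GRCm38 for 5356 members (97.6%). Short-lived transcripts had few exon junctions. They had a median of 5 exons and 1.44 junctions per kb, against 8 and 4.05 in long-lived transcripts and 9 and 3.51 in all members. Of 81 members with a single exon 27 (33.3%) were short-lived, and the median share at 8 h was 24.5%. With 2 exons it was 32.5% (172 genes), with 3 exons 68.4% (290 genes) and with 4 exons 82.0% (392 genes). It did not keep rising, at 83.2% with 5 exons (400 genes), 66.7% with 6 (412 genes) and 70.0% with 12 or more (2067 genes). Members with 1 or 2 exons had medians of 46.4% at 4 h and 29.8% at 8 h (253 genes), against 86.3% and 70.7% in those with 3 or more (5103 genes). Without histone and Zfp genes, members with 1 or 2 exons had 32.7% at 8 h (237 genes).

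The same contrast was seen within the band of 1000 to 3000 at 0 h, with 33.3% at 8 h for 71 genes of 1 or 2 exons and 75.1% for 1333 genes of 3 or more. It was not seen from a level of 3000, where the medians were 97.0% (20 genes) and 98.3% (643 genes). Sox2 is a single-exon gene, whereas Klf2 has 3 exons, Klf4 5, Zfp42 4 and Pou5f1 5, so exon number did not separate the lasting Pou5f1 from the others. In 5 equal groups by junction density the median share at 8 h was 46.6%, 62.6%, 70.2%, 76.0% and 83.9% from the sparsest to the densest. Coding sequences were shorter in long-lived transcripts, with a median of 970.5 bases against 1329 in short-lived ones, and so were 3′ UTRs, at 592 against 919 bases. The median third-codon-position GC content was 63.1% in short-lived, 60.1% in long-lived and 60.0% in all members. In 5 equal groups by that content, 8.96% of members in the highest group were short-lived, against 4.20% to 4.76% in the others.

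**Figure D5:**
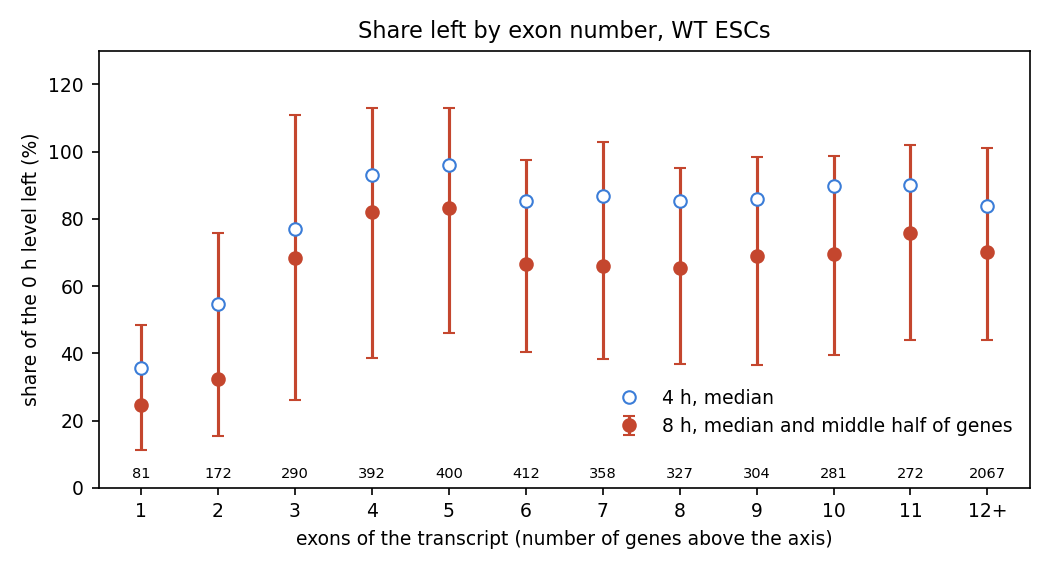
Share of the 0 h level left (y axis, %) in WT ESCs by number of exons (x axis), as the median at 4 h (open, blue) and the median with the 25th to 75th percentile at 8 h (filled, red). The numbers of genes stand above the axis. The 8 h median is 24.5% for 1 exon, 82.0% for 4, 66.7% for 6 and 70.0% for 12 or more.

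Motifs were searched in annotated 3′ UTRs on the transcript strand, and a match is a description of letters and not of binding. The AU-rich nonamer TTATTTATT shown above was in 22 of 285 short-lived (7.72%), 43 of 1072 long-lived (4.01%) and 293 of all 5356 annotated members (5.47%). It contains the shorter forms TATTTAT and ATTTA. Members with the nonamer had a median share of 51.9% at 8 h, against 70.2% without it (5063 genes). Among 3′ UTRs of 500 to 2000 bases the values were 52.1% (122 genes) and 68.1% (2302 genes). The bare pentamer ATTTA made little difference in UTRs of that length, with 67.0% in the 1775 genes that have it and 69.9% in the 649 that do not. Of the pluripotency factors, Nanog and Klf5 hold the nonamer in the GENCODE transcript, whereas Klf2 and Klf4 hold none. The Klf5 copy lies past the end of Klf5 in the GRCm38.p6 gene table (chr14:99313412).

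The Pumilio element TGTAAATA was in 46 short-lived (16.1%), 59 long-lived (5.50%) and 559 of all annotated members (10.4%). The median share at 8 h was 52.3% with it and 71.2% without it, and in UTRs of 500 to 2000 bases 51.7% (247 genes) and 69.7% (2177 genes). In the GENCODE transcripts Klf5 has 3 copies and Tbx3 has 2. Both Klf5 windows shown lie past the end of Klf5 in the GRCm38.p6 gene table (chr14:99313412). Whether the Klf5 transcripts measured here hold them is not known. Wdr43, a ribosome biogenesis gene whose window is shown, had 3480, 266 and 327, and Dlc1 had 2062, 200 and 159. Epha2, an ephrin receptor gene, carries the nonamer and had 2960, 270 and 239. These 3 genes are short-lived members picked for display by motif and level. GGACT, a frequent form of the m6A consensus, within 150 bases of the stop codon went with 63.4% at 8 h (1763 genes), against 71.9% without it (3593 genes).

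The same genes can be followed in the conditions that the choice of members did not use. Of the 519 members that fell in WT ESCs, 406 (78.2%) had a negative slope in KO ESCs, against 53.1% of all members, and 3 were called there, where 0.0729% of members and 0.0315% of all genes tested were called falling. In KO EBs 472 (90.9%) had a negative slope, against 72.1% of all members, and 0 were called, where 0 members were. In WT EBs 517 (99.6%) had a negative slope, close to the 97.0% of all members, and 400 (77.1%) were called, against 54.8% of all members and 26.7% of all genes tested. The column totals of WT EBs fell over time, and what part this had in their calls was not tested.

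The 4216 members that also had a level of at least 300 in WT EBs at 0 h allow shares to be set side by side. The 176 short-lived among them had a median of 14.3% at 4 h and 10.7% at 8 h in WT ESCs, and 21.8% and 11.5% in WT EBs. The 1000 long-lived ones had 130% and 125% in WT ESCs, and 78.1% and 40.8% in WT EBs as deposited. With WT EB columns set to equal totals these became 107% and 92.2%, and those of the short-lived genes 30.0% and 26.1%. The order of the classes was therefore the same in WT EBs, in libraries the classes were not drawn from. Tests of the slope in WT ESCs minus that in WT EBs called 262 positive (2.06%) and 9 negative (0.0708%) differences among all genes tested as deposited, and 0 under equal totals or median-ratio scaling. Pou5f1, at 32682, 41599 and 41154 in WT ESCs, had 14528, 11885 and 5332 in WT EBs, and Klf2, at 5550, 214 and 125 in WT ESCs, had 3836, 307 and 151 in WT EBs.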

How the data were processed

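Transcript 3′ ends were sequenced after RNA fragmentation and poly(A) selection with strand-specific first-strand synthesis, per the labels' protocols. The authors deposited 1 table of normalized signal per RefSeq entry, a level that is never below 0. The counting and scaling behind it are not given in the sources used here. Per the submitters' processing notes, the build was mm10 and the tools were Bowtie2 2.1.0, Bowtie and CASAVA 1.8.2. Of 19746 entries, 19535 got a symbol through their RefSeq ID from a gene table on assembly GRCm38.p6 and 98 more through GENCODE M21, 113 kept their ID, and dropping 38 identical duplicates left 19708, among which 118 share a symbol.

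At least 99.9% of values under 100 in the WT ESC libraries were whole multiples of a step, within 0.1 of a step. The commonest low value, 50 steps, was taken as 1 read: a level of 22.96, 24.75 and 32.71 at 0, 4 and 8 h. The 95% intervals of shares are exact conditional (Clopper-Pearson) intervals on the read equivalents and hold counting error alone, as PCR copies were not told apart. Many values lie between whole reads, so count models were not used.

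In R 4.3.3, limma 3.58.1 tested slopes, two-sided, on log2(level + 8.58), 8.58 being 1 ppm of the mean column total, which understates changes of low genes. The 12704 entries with a mean level of at least 42.9 over 12 libraries were tested, all members among them. The fit has 8 coefficients and 4 residual degrees of freedom, to which the trended prior on the variance adds 11.1. Benjamini-Hochberg adjustment ran over all genes tested. The procedure was tested on simulated data with straight lines and independent noise, which hold no curvature and no shift of a whole library. Each group is 1 library, taken from the sample titles, and p-values measure scatter between these libraries, which may be technical. Alternatives were other scalings, pseudocounts, filters, libraries and class limits.

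Members and the 42 gene lists were chosen with earlier results of these data known. Genes are named by rule: 10 pluripotency factors, the 12 steepest called falls and up to 8 called rises from a 0 h level of 1000 (2 were found), up to 4 members of each list with the highest 0 h level and up to 4 with the steepest called slopes, and the 4 largest called slope differences to WT EBs. Some genes that these rules pick are not reported here. Genes outside them were named after their values were seen. Symbols of the lists without a matching entry, such as Jund, Rbbp4, Rian and Neat1, were not analysed here. Exons and UTRs are those of GENCODE transcripts matched by RefSeq ID, and 3′ ends used in these cells may differ.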

Additional observations from a re-analysis of the deposited data

Results flagged for a closer look

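The decay slope differed between WT ESCs and WT EBs in 271 genes by a limma contrast, 262 of them with a positive difference (slope in WT ESCs minus slope in WT EBs). The count was 0 under median-ratio scaling, 0 under equal column totals, 0 without the variance trend and 3 under ribosomal protein scaling. It therefore depends both on the scaling of the columns and on the use of the variance trend. Totals of the WT EB columns fall over time, and what part this had in the differences was not tested. Among members from a level of 1000 the largest called difference was that of Eif4a2, at 0.47 ± 0.11 log2 per h (limma adjusted p 0.043), with levels of 2912, 3114 and 17439 at 0, 4 and 8 h in WT ESCs and 2480, 893 and 1094 in WT EBs. The entry of the small nucleolar RNA gene Snord96a differed by 0.41 ± 0.08 (limma adjusted p 0.0421), with 1300, 2981 and 3040 in WT ESCs and 4026, 2314 and 975 in WT EBs. Small nucleolar RNA genes lie within introns of other genes, and reads of the host cannot be told apart from its own here. Vapa, a membrane contact site protein gene, differed by 0.40 ± 0.07 (limma adjusted p 0.0421), with 3041, 2979 and 2241 in WT ESCs and 3272, 1138 and 248 in WT EBs. No called negative difference was found at that level.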

How the results depend on the processing

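No paired analysis was possible because each group has 1 library and the labels give no replicate numbers. Of 680 genes falling, 302 were called under median-ratio scaling, 442 under equal column totals, 373 with no filter on low levels, 157 without the variance trend, 428 with the ESC libraries only, 0 with the 3 WT ESC libraries only, and 28 and 183 when the 0 h or the 8 h library of WT ESCs was left out. Of 519 members falling, the counts were 226 under median-ratio scaling, 305 with no filter, 87 without the trend, 0 with WT ESC libraries only, 12 without the 0 h library and 129 without the 8 h library. The 20 genes rising became 38, 36, 6, 10, 0 and 60 under median-ratio scaling, equal totals, no filter, ESC libraries only, WT ESC libraries only and a shared 4 h term, and 9, 50 and 11 without the 0, 4 and 8 h library. The 5 members rising became 21, 23, 12, 1, 12, 0, 0 and 35 under median-ratio scaling, equal totals, ribosomal protein scaling, no filter, a filter of 20 ppm, no trend, WT ESC libraries only and a shared 4 h term, and 1 and 0 without the 0 and 8 h library. The 271 slope differences to WT EBs became 0, 0, 0 and 3 under median-ratio scaling, equal totals, no trend and ribosomal protein scaling. These are counts and do not say that the same genes were called.

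The median shares at 4 and 8 h were 78.5% and 67.0% for members from a level of 100, 97.0% and 84.3% from 1000, 95.5% and 81.6% by a mean of 300, 68.9% and 59.7% under ribosomal protein scaling, and 98.2% and 87.6% with median ratios. Equal totals gave 76.5% at 8 h. Short-lived members numbered 540 from 100, 69 from 1000, 112 by a mean of 300, 441 under ribosomal protein scaling, and 78 and 978 with a stricter and a looser limit. Long-lived members numbered 625 from 1000, 1867 under median-ratio scaling, 497 under ribosomal protein scaling, and 151 and 1964 with a stricter and a looser limit. The 8 h median of members with 1 or 2 exons was 37.4% under median-ratio scaling, an alternative chosen after seeing the data. Of 99 named genes with a call, 56 kept it under median-ratio scaling, 75 under equal totals, 24 without the trend, and 2, 98 and 29 without the 0, 4 and 8 h library. Without the 0 h library the slope changed sign for Cdkn1a (0.02), Cited2 (0.00), H2ac24 (0.00), Sox2 (0.15) and Wdr43 (0.07), as that fit sees only the step between 4 and 8 h. The cause of the other changes was not tested. Depth limits the late shares, since a gene at 300 has 13.1 reads at 0 h.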
